A study of Mus musculus with 24 samples.

Results

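Cytosolic ribosomal protein genes encode the proteins that, with ribosomal RNA, build the large and small subunits of the ribosome. They were chosen as a list of 55 named genes, and all 55 were found among the 45513 genes counted per library: 32 of the large subunit, 3 of the stalk (Rplp0, Rplp1 and Rplp2) and 20 of the small subunit. Pseudogenes were kept apart. The 55 genes lie on 19 chromosomes, with at most 8 on any of them (chromosome 7).

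The mice were adult males and females of C57BL/6 background, in which CreERT2 was placed downstream of Atoh1 in its own locus and a tdTomato (tdTom) reporter in Rosa26 marked the cells in which Cre had acted. WT mice carried Atoh1(WT)CreERT2, and 9S/T-A mice carried Atoh1(9S/T-A)CreERT2, in which 9 serine or threonine residues followed by proline were exchanged for alanine. Each mouse received 3 mg tamoxifen, and live EpCAM+tdTom+ epithelial cells were sorted on the next day from the proximal small intestine (SI) or the colon. Genotype and tissue gave 4 groups of 6 RNA-seq libraries, numbered 2 to 7, and a number had the same sex in each group. All 4 groups therefore share the knock-in of CreERT2, the reporter and the tamoxifen, and there was no group without them. Cre was driven from the Atoh1 locus itself, so the sorted cells are those that made Atoh1, which marks the secretory lineage, and their makeup can differ between tissues and genotypes. The labels do not say whether the SI and colon libraries with the same number came from the same mouse, so the p-values measure the spread between these libraries, part of which may be technical.

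The ribosome translates mRNA into protein: the small subunit reads the message, the large subunit joins the amino acids, and the stalk recruits elongation factors. Ribosomal protein mRNAs belong to the TOP class, in which the message starts with a C followed by an unbroken tract of pyrimidines, and mTORC1 signaling promotes the translation of this class as a unit through factors that act on the tract. In the intestine, secretory cells such as goblet and Paneth cells make large amounts of a few secreted proteins, while crypt progenitors grow and divide.

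A pyrimidine tract at the start of the message is the feature that defines the class, so the surroundings of the annotated start of 6 genes described here are shown, with the longest run of C and T anywhere in the window in capitals. Each window covers 20 bases before and 10 bases from the annotated start, read on the strand of the gene (RefSeq, GRCm38.p6). Where RefSeq lists several starts for a gene, the one with the longest run was taken, here and in all other genes. The windows lie at chr5:107900508-107900537 (Rpl5, plus strand), chr5:115559447-115559476 (Rplp0, plus), chr7:141447631-141447660 (Rplp2, plus), chr4:86857358-86857387 (Rps6, minus), chr12:28635944-28635973 (Rps7, minus) and chr3:90213639-90213668 (Rps27, minus).
Rpl5: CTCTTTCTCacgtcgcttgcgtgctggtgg
Rplp0: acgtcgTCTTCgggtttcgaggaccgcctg
Rplp2: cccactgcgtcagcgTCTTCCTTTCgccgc
Rps6: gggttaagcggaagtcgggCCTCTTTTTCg
Rps7: gaagagCTTCCggtttccacccacctactt
Rps27: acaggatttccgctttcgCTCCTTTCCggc

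The run was 9 bases long in Rpl5 and Rps27, 10 bases in Rplp2 and Rps6, and 5 bases in Rplp0 and Rps7. The annotated start is base 21 of the window. The run lay over this base in Rplp2, Rps6 and Rps27. It ended before this base in Rpl5 (base 9), Rplp0 and Rps7 (base 11 in both). The capitals of these 3 genes thus lie before the RefSeq start that was taken. In Rpl5 they lie within the gene span of the count files, which starts at base 107900502 of chromosome 5. Start sequences were used for 44 of the 55 genes. Those on chromosome 18 (Rpl17 and Rps14) were left out by choice, while no chromosome was left out of the set of all symbols. A run of at least 8 pyrimidines anywhere in the window, counted on the strand of the gene alone, was present in 21 of these 44 (47.7%), and in 3927 of all 27025 gene symbols with such a sequence (14.5%). It lay over the annotated start base in 13 of the 44 (29.6%), and in 1154 of all symbols (4.27%), and it lay wholly before the start in 6 of the 44. The median longest run was 7 bases in the ribosomal protein genes and 5 bases in all symbols. The longest was 21 bases in Rpl7a and the shortest 2 bases in Rpl10. These are matches of letters in a reference window and not measured start sites.

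Total counts ranged from 36.0 to 65.8 M per library. A ribosomal protein gene had a mean of between 1910 (Rpl24) and 65452 (Rplp0) counts per library, and the lowest count of any of them in any library was 607, so counting error was small beside the spread between libraries. The sorted cells carried the markers of the labelled lineage: 9 goblet cell markers (among them Muc2 and Tff3) summed to between 315178 and 508318 CPM in SI and between 36275 and 82603 CPM in colon. CPM here are counts per M of a library's total after TMM scaling over all 24 libraries, so they are levels relative to a common scale and not shares of a library's counts. The 9 Paneth cell markers summed to between 43029 and 86362 CPM in SI and to between 488 and 1917 CPM in colon. Markers of absorptive cells (9 genes) summed to between 3181 and 6443 CPM in SI and to between 339 and 733 CPM in colon. Leukocyte markers (10 genes) summed to between 1554 and 2863 CPM in SI, of which Lyz2 alone had a median of 2269 (WT) and 2087 CPM (9S/T-A), and to at most 11.4 CPM in colon; stromal markers (9 genes) reached at most 20.2 CPM in any library, and Col3a1 was at 0 in every library.

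Together the 55 genes took up a larger part of the colon libraries than of the SI libraries. Their share of all counts was 0.92% to 1.53% in WT SI (median 1.20%), 0.79% to 1.33% in 9S/T-A SI (median 0.998%), 3.25% to 3.80% in WT colon (median 3.49%) and 2.72% to 3.25% in 9S/T-A colon (median 3.05%). The lowest colon library thus lay above the highest SI library in both genotypes, while WT and 9S/T-A overlapped in SI and touched in colon.

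A share depends on what else is in the library, and a few secretory products dominated SI: the 20 most counted genes, none of which is a ribosomal protein gene, took a median of 36.8% (WT) and 41.5% (9S/T-A) of counts in SI, and 13.3% and 15.3% in colon. With these 20 genes taken out of the denominator, the median shares were 1.95%, 1.72%, 4.02% and 3.55% in the same order, and the ratio of the colon median to the SI median went from 2.90 to 2.06 in WT and from 3.06 to 2.06 in 9S/T-A. In bulk RNA such as this, fewer cells of a type and less RNA per cell cannot be told apart.

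**Figure D1:**
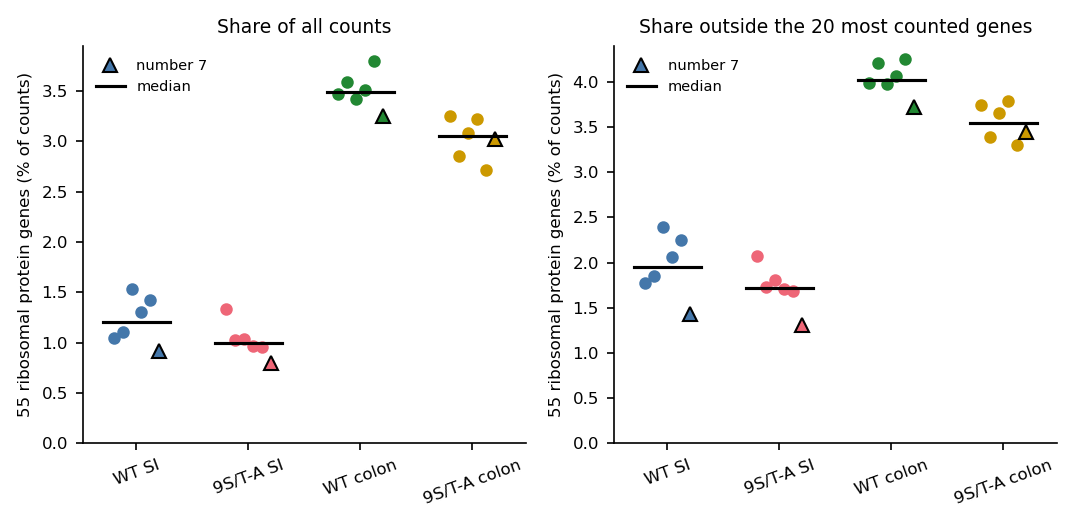
Share of counts in the 55 ribosomal protein genes (y axis, % of counts) in each of the 24 libraries by group, over all counts on the left and over counts outside the 20 most counted genes on the right. Points are libraries, triangles the libraries with number 7 and lines the medians of 6; the colon libraries lie above all SI libraries, at medians of 3.49% (WT) and 3.05% (9S/T-A) against 1.20% and 0.998%.

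Per kilobase of the principal transcript, the level of most members was alike. The median over the genes was 327.6 CPM per kb as a mean of the 4 groups, and 43 of the 55 lay within 2-fold of it. Rplp1, an acidic stalk protein, had the highest level per length (1066 CPM per kb), followed by Rplp0, the stalk base (814 CPM per kb), and Rps27, a small-subunit zinc finger protein (803 CPM per kb). Rpl24 had the lowest (48.6 CPM per kb), 21.9 times below Rplp1. Rplp1 stayed highest and Rpl24 lowest when the whole exonic length of the gene in the count files was used as the length, but Rps27 went from the 3rd to the 19th place. The median over the genes was 253.9 CPM per kb in WT SI, 232.8 in 9S/T-A SI, 452.4 in WT colon and 390.8 in 9S/T-A colon.

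Levels of single genes carry an uncertainty from processed pseudogenes, which are numerous for this family. By sequence (at least 90% identity over at least 200 bases), 595 annotated pseudogenes matched 51 of the 55 genes, and they held a median of 32.5% of the summed counts of a gene and its pseudogenes. That part was over 25% for 35 genes and over 50% for 6: Rpl29 (66.2%), Rpl24 (64.4%), Rpl15 (59.9%), Rps23 (57.3%), Rps6 (55.1%) and Rps2 (53.8%). Reads of a gene can have been placed at such a copy, so the low level of Rpl24 is uncertain.

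Within a group, the 55 genes moved together from library to library. The SD of their mean log2 CPM over the 6 libraries was 0.27 in WT SI, 0.23 in 9S/T-A SI, 0.12 in WT colon and 0.14 in 9S/T-A colon, whereas the SD of a gene around that mean had a median of only 0.05 to 0.07. The libraries with number 7 had the lowest mean in every group. All 55 genes were at their lowest in number 7 in both SI groups and in WT colon, and 40 of 55 in 9S/T-A colon. Of 13846 genes, 30.5%, 32.3%, 42.3% and 40.2% were also lowest in these libraries in the same order. The depth of number 7 was the lowest of its group in WT SI (36.0 M) and in 9S/T-A colon (49.0 M), the next to lowest in WT colon (48.7 M) and the next to highest in 9S/T-A SI (63.9 M); what sets these libraries apart was not tested.

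The first comparison asks how the cells of the 2 tissues differ within a genotype. Here every gene of the family was higher in colon. In WT, 55 of 55 were called higher in colon than in SI (edgeR quasi-likelihood test, adjusted p below 0.05), against 33.1% of all genes tested, and none was called lower, against 30.4%. The median log2 fold change was 0.82 (1.77-fold), with a range of 0.52 to 1.02, against a median of 0.03 over all 16979 genes tested. In 9S/T-A, 55 of 55 were again called higher, against 32.9% of all genes, and none lower, against 28.0%. The median was 0.78 (1.72-fold), with a range of 0.48 to 0.99, against 0.04 over all 16938 genes. The highest adjusted p of any of the 55 was 0.00189 in WT and 0.00175 in 9S/T-A. The 2 comparisons use different libraries.

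The ranges of the 6 colon and the 6 SI libraries did not overlap for 54 of the 55 genes in WT, against 23.9% of all genes, with Rps2 as the exception. They did not overlap for 50 of 55 in 9S/T-A, against 22.7% of all genes, and the 5 exceptions were Rpl8, Rplp2, Rps2, Rps20 and Rpsa. Between libraries of the same number, the mean log2 CPM of the family was 0.62 to 1.12 higher in colon in WT and 0.65 to 1.01 higher in 9S/T-A, and all 6 differences were positive in each genotype. Without the libraries of number 7, an alternative added after the data were seen, 55 of 55 were still called higher in both genotypes, with medians of 0.78 and 0.73.

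**Figure D2:**
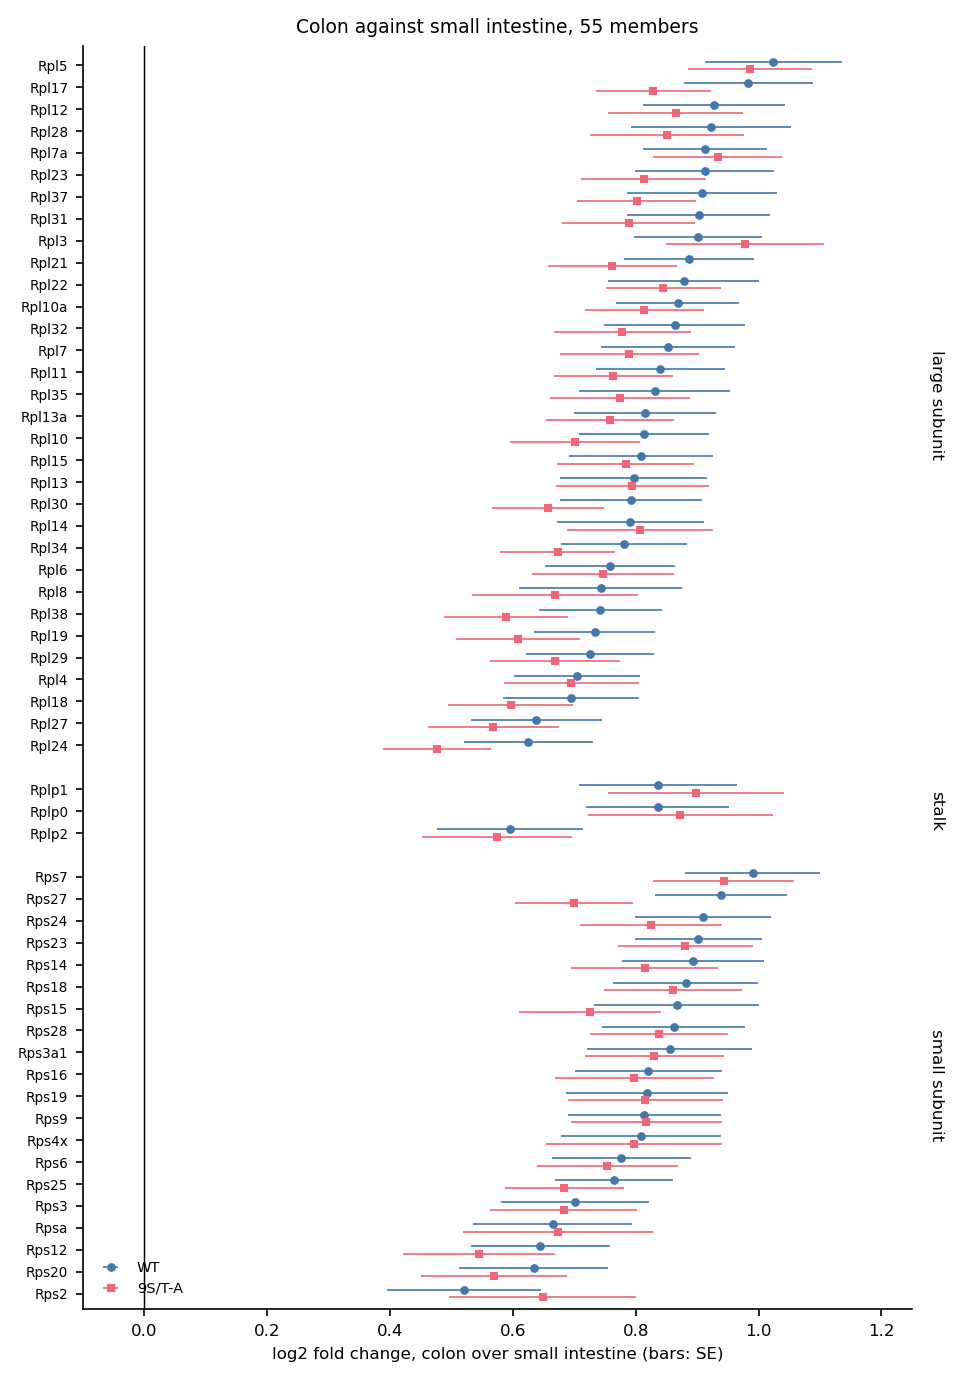
Log2 fold change of colon over SI (x axis) for each of the 55 genes, ordered by the value in WT within large subunit, stalk and small subunit, with circles for WT, squares for 9S/T-A and bars for the SE. All 110 values lie to the right of 0, between 0.48 and 1.02.

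In the large subunit, the largest rise in either genotype was that of Rpl5 (GRCm38 chromosome 5, 107900502 to 107909005), which binds 5S ribosomal RNA and, when free, holds back Mdm2. Its level was 235.8 to 386.4 CPM in WT SI (median 339.9) and 618.3 to 734.7 CPM in WT colon (median 700.9), and 226.3 to 343.1 (median 295.8) and 539.2 to 650.8 (median 582.5) in the 9S/T-A groups. The colon and SI ranges lay far apart in both genotypes. The log2 fold change was 1.02 (SE 0.11, adjusted p = 1e-06, edgeR) in WT and 0.99 (SE 0.10, adjusted p = 6.3e-07) in 9S/T-A. Rpl11, its partner in the 5S particle, rose by 0.84 and 0.76 (named after its values were seen).

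Rpl17 (chromosome 18), which lines the exit tunnel for the new protein, had the next largest rise of the large subunit in WT. It went from 149.1 to 245.3 CPM in SI (median 219.4) to 402.4 to 451.0 CPM in colon (median 423.5). The ranges did not overlap, and the log2 fold change was 0.98 (SE 0.11, adjusted p = 8.4e-07, edgeR) in WT and 0.83 (SE 0.094, adjusted p = 2e-06) in 9S/T-A. Rpl3 (chromosome 15, 80077794 to 80091868), close to the site where peptide bonds form, was at 216.0 to 375.4 CPM in 9S/T-A SI (median 314.5) and at 511.1 to 754.5 CPM in 9S/T-A colon (median 630.7). Its log2 fold change was 0.98 (SE 0.13, adjusted p = 9.7e-06) there and 0.90 (SE 0.10, adjusted p = 1.9e-06) in WT.

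Rpl10, which completes the large subunit in the cytoplasm, had medians of 308.1 CPM in WT SI and 551.9 CPM in WT colon, and its log2 fold change was 0.81 (SE 0.11) in WT and 0.70 (SE 0.11) in 9S/T-A. Rpl22, an RNA-binding protein of the surface of the subunit, had medians of 117.7 and 212.4 CPM in WT and changed by 0.88 (SE 0.12) and 0.84 (SE 0.094). Both were called in both genotypes. Rpl24 had the smallest change in 9S/T-A, 0.48 (SE 0.088, adjusted p = 0.00024), from a median of 27.2 CPM in SI to 36.9 CPM in colon, with the reservation on its pseudogenes above.

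In the stalk, all 3 genes rose. Rplp0 (chromosome 5, 115559467 to 115563727) was at 592.4 to 970.4 CPM in WT SI (median 867.9) and at 1276 to 1666 CPM in WT colon (median 1558). Its log2 fold change was 0.84 (SE 0.12) in WT and 0.87 (SE 0.15) in 9S/T-A. Rplp1 had medians of 415.1 and 742.8 CPM in WT and changed by 0.84 (SE 0.13) and 0.90 (SE 0.14), while Rplp2, which pairs with Rplp1 on the stalk, had medians of 243.7 and 381.6 CPM and changed by 0.60 (SE 0.12) and 0.57 (SE 0.12). All were called in both genotypes, and the difference between Rplp1 and Rplp2 was not tested.

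In the small subunit, Rps7 (chromosome 12, 28630847 to 28635953), needed for the maturation of the small-subunit RNA, rose most. Its level was 184.2 to 313.8 CPM in WT SI (median 263.7) and 470.0 to 574.1 CPM in WT colon (median 523.7), and 171.6 to 294.7 (median 222.5) and 404.9 to 492.5 (median 450.1) in 9S/T-A. There was no overlap in either genotype, and the change was 0.99 on the log2 scale (SE 0.11, adjusted p = 1.3e-06, edgeR) in WT and 0.94 (SE 0.11, adjusted p = 4e-06) in 9S/T-A.

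Rps6, the S6 kinase substrate, had medians of 270.0 CPM in WT SI and 484.1 CPM in WT colon, a log2 fold change of 0.78 (SE 0.11) in WT and 0.75 (SE 0.11) in 9S/T-A. Rps19, a maturation factor of the small subunit whose human counterpart is mutated in Diamond-Blackfan anemia, had medians of 183.7 and 327.4 CPM and changed by 0.82 (SE 0.13) in both. Rps3a1 changed by 0.86 (SE 0.13) and 0.83 (SE 0.11), and Rpsa, which doubles as a laminin receptor precursor, by 0.66 (SE 0.13) and 0.67 (SE 0.15). All 4 were called higher in colon in both genotypes. Rps2 had the smallest change of the family in WT, 0.52 (SE 0.13, adjusted p = 0.00189), with 228.8 to 376.8 CPM in SI and 345.9 to 525.3 CPM in colon, so that its ranges overlapped.

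The genes with a run of at least 8 pyrimidines anywhere in the window around the start had a median log2 fold change of 0.81 between the tissues in WT, and those without had 0.84; this is a description of 2 medians, and the difference was not tested.

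**Figure D3:**
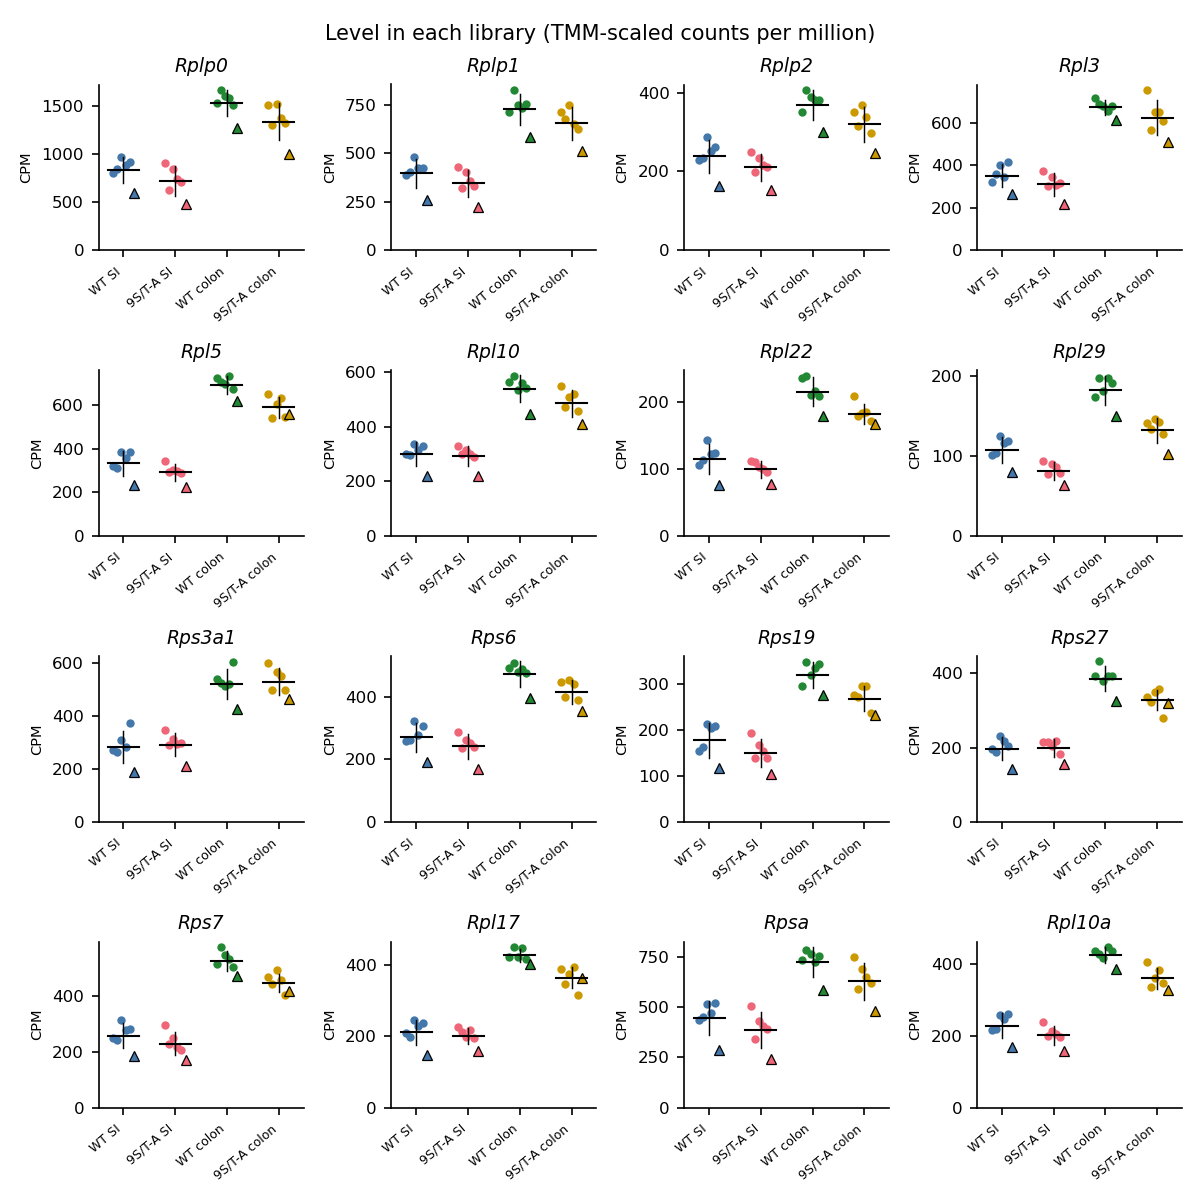
Level of 16 ribosomal protein genes in each library (y axis, TMM-scaled CPM over all 24 libraries) by group, with circles for libraries, triangles for the libraries with number 7, and lines for the mean and SD of 6. The colon groups lie above the SI groups in each panel, as for Rpl5 with medians of 700.9 CPM in WT colon and 339.9 CPM in WT SI.

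Other genes of the translation apparatus were read from lists to see how far the tissue difference reached. The counts of each list stand beside the same background as above: 33.1% of all genes called higher and 30.4% lower in WT, and 32.9% and 28.0% in 9S/T-A. The 28 other cytosolic ribosomal protein genes moved like the 55: 26 of 28 were called higher in colon and 0 lower in WT (median 0.80), and 24 and 0 in 9S/T-A (median 0.72). Rpl36al (0.14 in WT and -0.06 in 9S/T-A) and Rps27l (-0.06 and -0.15), near copies of Rpl36a and Rps27, were called in neither genotype, and Rpl41 was called in WT (0.29) and not in 9S/T-A (0.11). Among 21 tested genes for elongation factors and other TOP mRNAs, 17 were called higher and 1 lower in WT (median 0.57), and 17 and 0 in 9S/T-A (median 0.52). Eef1a1, which brings the charged tRNA, changed by 0.87 and 0.93, Eef2, which moves the ribosome along, by 0.79 and 0.84, and Rack1, a scaffold on the small subunit, by 0.90 and 0.87. The gene called lower in WT was Ptges3 (-0.34).

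Genes of ribosome assembly and of initiation were called in both directions in WT. Of 47 ribosome biogenesis genes, 10 were called higher and 6 lower in WT (median 0.08), and 18 and 0 in 9S/T-A (median 0.22). The nucleolar proteins Fbl (0.01 in WT and 0.11 in 9S/T-A) and Ncl (0.01 and 0.14) were not called, Nop56 was called lower in WT (-0.38), and Polr1b, a subunit of RNA polymerase I, was called higher in both (0.36 and 0.43). Of 24 other initiation genes, 5 were called higher and 11 lower in WT (median -0.13), and 6 and 5 in 9S/T-A (median -0.02). Eif4ebp1, the mTORC1-regulated repressor of cap-dependent initiation, fell by 0.93 in WT and by 1.03 in 9S/T-A, and Eif6, which keeps free large subunits apart from small ones, fell by 0.60 and 0.78.

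Of 76 tested mitochondrial ribosomal protein genes, 41 were called higher and 4 lower in WT (median 0.26), and 44 and 4 in 9S/T-A (median 0.31), shares nearer to the background than that of the cytosolic genes. In the mTORC1 and S6 kinase list (25 genes), 10 were called higher and 4 lower in WT (median 0.07), and 6 and 5 in 9S/T-A (median 0.09). Castor1, an arginine sensor, was higher in colon by 3.40 and 3.19, Sesn1, a leucine-sensing inhibitor of mTORC1, was lower by 1.01 and 0.73 (log2 fold changes of -1.01 and -0.73), and Mtor itself was not called (-0.03 and 0.08). These data hold mRNA levels, not translation.

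**Figure D4:**
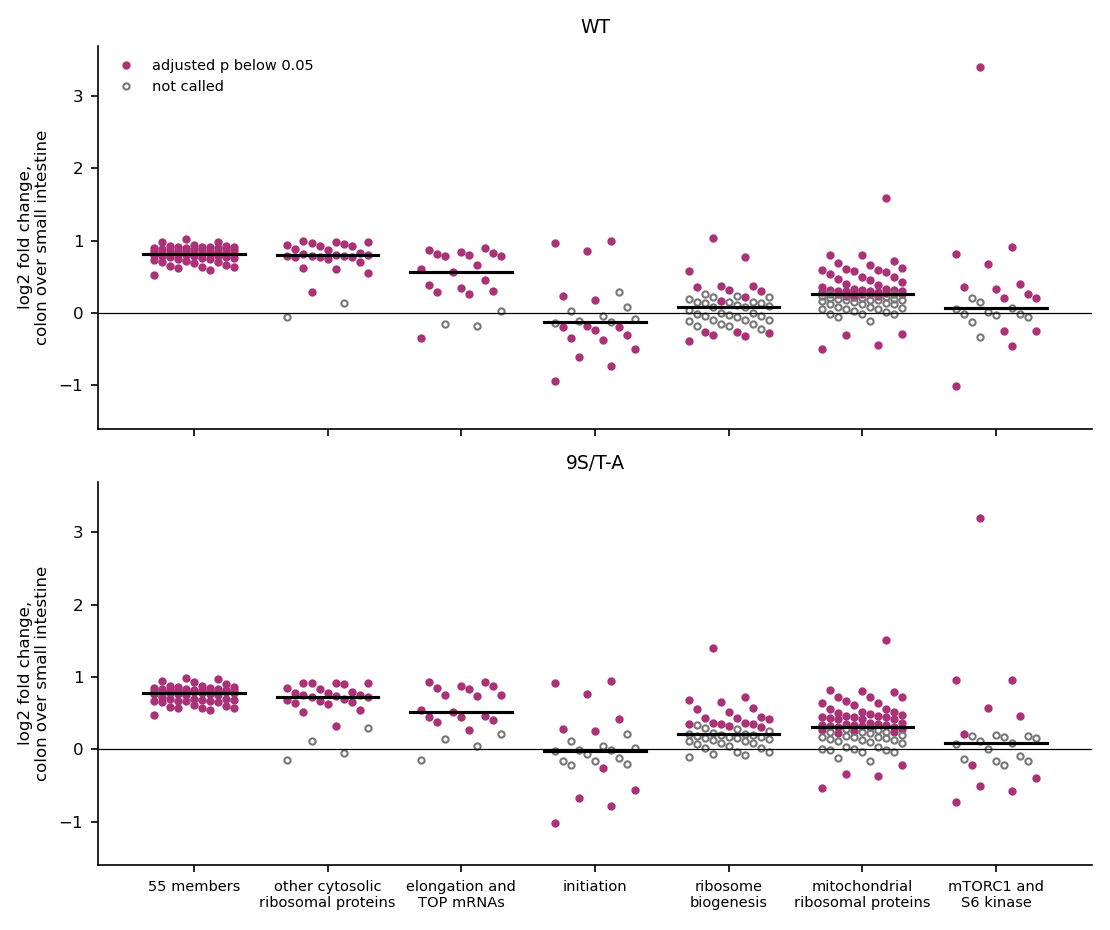
Log2 fold change of colon over SI (y axis) for the genes of 7 lists, in WT on top and in 9S/T-A below, with filled points for genes called at an adjusted p below 0.05 (edgeR), open points for those not called, and lines at the medians. The 55 genes (medians 0.82 and 0.78) and the other cytosolic ribosomal proteins (0.80 and 0.72) stand above initiation (-0.13 and -0.02) and biogenesis (0.08 and 0.22).

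The cell markers also differed between the tissues. In WT, 8 of 9 Paneth, 6 of 9 goblet, 8 of 9 cycling, 8 of 8 enteroendocrine, 5 of 5 tested tuft, 6 of 9 absorptive, 5 of 8 stem and 6 of 7 tested leukocyte markers were called lower in colon, with 1 Paneth, 1 goblet, 2 absorptive and 1 stem marker called higher. In 9S/T-A, 7 of 9 Paneth, 6 of 9 goblet, 3 of 9 cycling, 7 of 8 enteroendocrine, 4 of 5 tuft, 6 of 9 absorptive, 4 of 8 stem and 6 of 7 leukocyte markers were lower, and 1 Paneth, 1 cycling, 2 absorptive, 1 stem and 1 leukocyte marker were higher. The cycling markers summed to 342 to 474 CPM in WT SI and to 172.5 to 269 CPM in WT colon, the opposite direction to that of the ribosomal protein genes. In 9S/T-A these sums overlapped, at 258.2 to 415.4 CPM in SI (median 302.2) and 187.4 to 322.6 CPM in colon (median 280.5), while the ribosomal protein genes were higher in colon in both genotypes. Over all genes, the share called lower in colon was 30.4% in WT and 28.0% in 9S/T-A. How much of the tissue difference goes with the cell makeup was not tested.

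The second comparison asks how 9S/T-A cells differed from WT cells of the same tissue. The ribosomal protein genes lay slightly lower in 9S/T-A in both tissues, but almost none passed the test. In SI, 52 of 55 log2 fold changes were below 0, against 50% of all genes tested. The median was -0.15 and the range -0.40 to 0.05, against a median of 0.00 over all 16236 genes tested. No gene of the 55 was called by edgeR, higher (background 1.03%) or lower (background 0.905%). At an unadjusted p below 0.05 stood 1 of the 55, against 15.7% of all genes, and DESeq2 called 1 lower, against 2.35% of all genes. That gene was Rpl29 in each case. The ranges of WT and 9S/T-A overlapped for all 55, against 0.992% of all genes with a 9S/T-A range wholly below that of WT.

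In colon, 54 of 55 values were below 0, against 48.3% of all genes tested. The median was -0.18 and the range -0.44 to 0.04, against a median of 0.00 over all 16997 genes tested. One gene, Rpl29, was called lower by edgeR (1 of 55, against 0.0883% of all genes) and 0 were called higher (background 0.229%). At an unadjusted p below 0.05 stood 33 of the 55, all of them lower, against 8.81% of all genes in either direction. DESeq2 called 10 lower, against 0.557% of all genes: Rpl5, Rpl10a, Rpl12, Rpl13a, Rpl17, Rpl29, Rpl32, Rpl34, Rps7 and Rps24. The 9S/T-A range lay wholly below the WT range for 3 genes, Rpl17, Rpl29 and Rpl32, against 0.418% of all genes. The genes of both these counts are given as they came out, chosen after their values were seen.

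Between libraries of the same number, the mean log2 CPM of the family was lower in 9S/T-A in 6 of 6 numbers in colon, by -0.35 to -0.08, and in 5 of 6 in SI, with differences of -0.34 to 0.19. The WT and 9S/T-A libraries came from different mice, so these are not differences of paired samples. Libraries of the same number correlated above 0.1 in 5 of 6 numbers in colon and in 3 of 6 in SI. Without number 7 in any group, the medians were -0.17 in SI and -0.18 in colon. Because the 55 genes move together, these 55 directions are not 55 separate observations, and the medians can be set beside the SD of the family mean within a group, 0.23 to 0.27 in SI and 0.12 to 0.14 in colon.

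**Figure D5:**
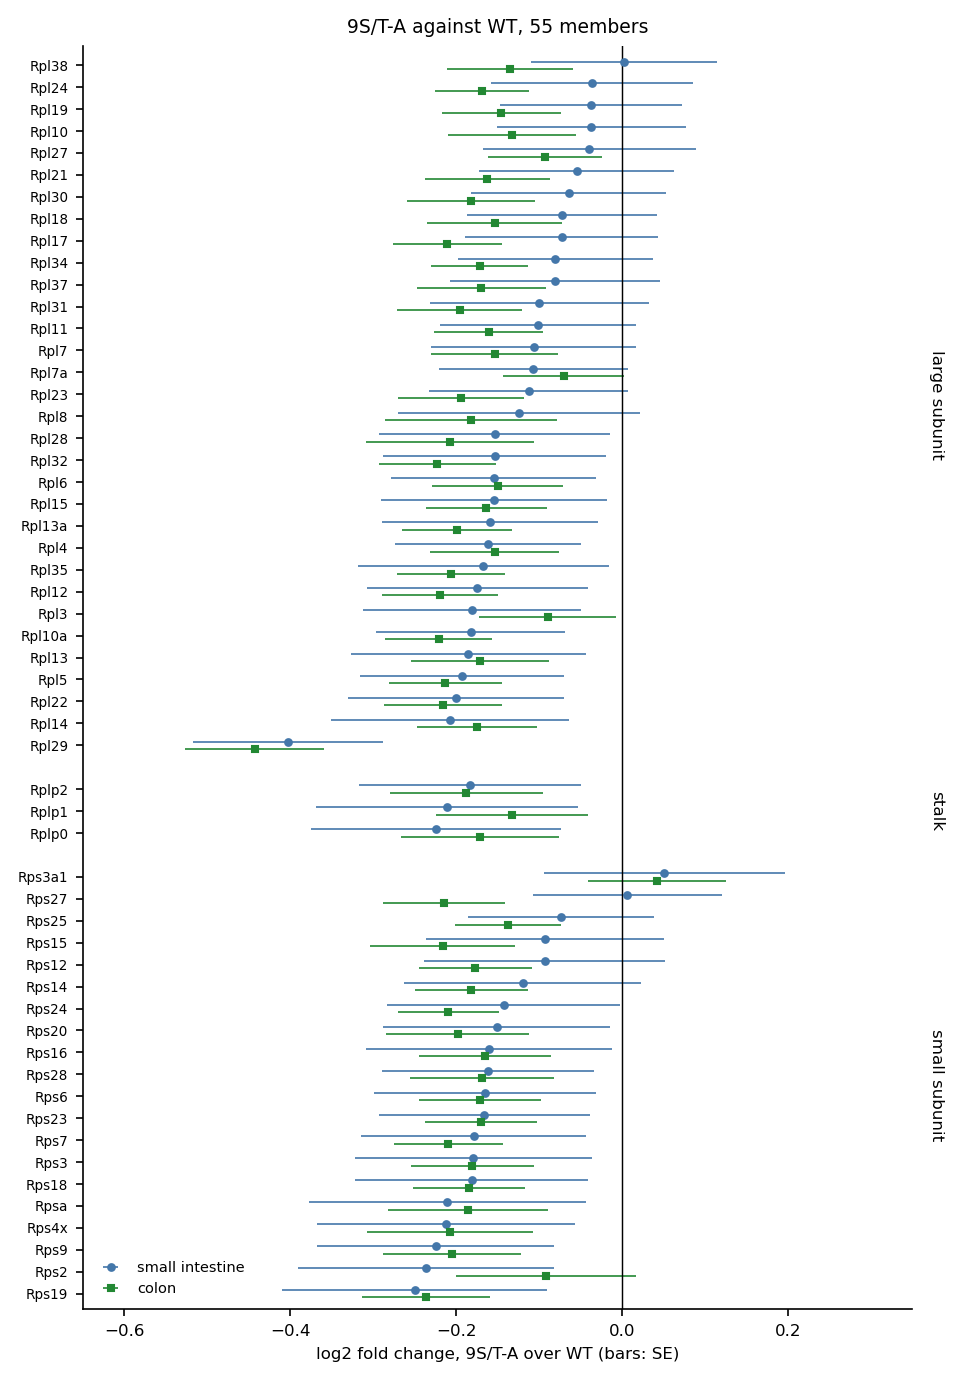
Log2 fold change of 9S/T-A over WT (x axis) for each of the 55 genes by subunit, with circles for SI, squares for colon and bars for the SE. Most values lie between -0.25 and 0, and Rpl29 stands apart at -0.40 in SI and -0.44 in colon.

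Rpl29 (ENSMUSG00000048758, GRCm38 chromosome 9, 106429454 to 106431568), a small basic protein of the outer face of the large subunit, was the gene with the largest difference between the genotypes. In colon it was at 149.6 to 197.2 CPM in WT (median 186.3) and at 102.3 to 145.6 CPM in 9S/T-A (median 136.6). In SI it was at 79.8 to 124.6 CPM in WT (median 109.9) and at 63.1 to 93.9 CPM in 9S/T-A (median 82.2). The groups were separate in colon and overlapped in SI. The log2 fold change was -0.44 (SE 0.083, adjusted p = 0.0379, edgeR) in colon and -0.40 (SE 0.11, adjusted p = 0.0974) in SI.

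The call of Rpl29 is uncertain in ways that could be measured. It has 53 pseudogenes by sequence, and when their counts were added to it, the log2 fold change in colon was -0.27 (adjusted p = 0.358). Leaving out 1 library kept the call in colon in 2 of 12 fits, those without WT or without 9S/T-A number 7, with adjusted p between 0.0246 and 0.0988 (edgeR), while the log2 fold change stayed between -0.48 and -0.39. In SI it ran from -0.48 to -0.34 in the same fits, and leaving out WT number 7 brought it past the threshold. So did leaving number 7 out of every group (adjusted p = 0.0223), all 24 libraries in 1 fit (0.0436), plain totals (0.0468) and DESeq2 (0.03). Over the 14 alternatives run in SI, its log2 fold change lay between -0.52 and -0.24, with adjusted p up to 0.365 (edgeR). Rpl29 stayed uncalled in 8 of these 14. Among its neighbors within 1 Mb, 6 of 26 tested were called in SI (23.1%, against 1.94% of all genes in either direction): Twf2 (0.44), Dusp7 (-0.61), Pcbp4 (1.24), Parp3 (1.37), Mapkapk3 (-0.30) and Cacna2d2 (1.30). In colon 2 of 27 were called (7.41%, against 0.318%), Twf2 (0.50) and Parp3 (1.17). Whether the position of Rpl29 or its sequence copies bear on its difference was not tested.

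Of the other members, Rpl10a had the next smallest p in SI. This protein, which forms a mobile arm of the large subunit, was at 167.5 to 259.5 CPM in WT SI (median 232.3) and 158.0 to 236.8 CPM in 9S/T-A SI (median 200.4), so the groups overlapped almost fully. Its log2 fold change was -0.18 (SE 0.11, adjusted p = 0.473, edgeR) in SI and -0.22 (SE 0.064, adjusted p = 0.249) in colon. Rpl3 stood at -0.18 in SI and -0.09 in colon, Rpl10 at -0.04 and -0.13, and Rpl22 at -0.20 and -0.22, and none of these was called.

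The stalk genes had values of -0.22 and -0.17 (Rplp0), -0.21 and -0.13 (Rplp1) and -0.18 and -0.19 (Rplp2) in SI and colon, with adjusted p of 0.508 or more in each. In the small subunit, Rps6 stood at -0.16 and -0.17, Rps19 at -0.25 and -0.24 and Rpsa at -0.21 and -0.19, with adjusted p of 0.333 or more. None passed the test.

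Rps3a1 was the gene of the family with a value above 0 in both tissues, 0.05 in SI (SE 0.15) and 0.04 in colon (SE 0.083), not called. The sign depended on where reads were counted: with the counts of pseudogenes named after it added, the values were -0.21 and -0.23, and with those matched by sequence -0.23 and -0.24. One of these, Rps3a3, had median levels of 135.0 CPM in WT SI, 62.0 in 9S/T-A SI, 263.0 in WT colon and 112.0 in 9S/T-A colon, and its ranges did not overlap between the genotypes in either tissue. Of the sequence-matched pseudogenes tested, 458 of 474 were called higher in colon in WT, against 33.1% of all genes. In 9S/T-A they were 461 of 475, against 32.9%. Between the genotypes, 2 of 451 were called lower in SI, against 0.905% of all genes, and 5 of 486 in colon, against 0.0883%.

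The lists of the translation apparatus gave few calls between the genotypes. In SI, Pabpc1, the poly(A)-binding protein and a TOP mRNA, was the only gene of the 6 lists that was called (-0.42, SE 0.093, adjusted p = 0.0311, edgeR), and in colon 0 genes of these lists were called. Over all genes, 1.94% were called in SI and 0.318% in colon, in either direction. The list medians were -0.11 in SI and -0.18 in colon for the other cytosolic ribosomal proteins, -0.16 and -0.10 for elongation and TOP mRNAs, -0.03 and 0.03 for initiation, -0.20 and 0.02 for biogenesis, -0.07 and -0.02 for the mitochondrial ribosome, and 0.04 and 0.00 for mTORC1 and S6 kinase.

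Some cell markers differed between the genotypes beside these values. In SI, 4 of 9 Paneth markers were called lower in 9S/T-A (Mmp7, Itln1, Ang4 and Pla2g2a), as were 2 of 5 tested tuft markers (Pou2f3 and Gfi1b) and 1 of 3 tested stromal markers (Vim), and 0 of the goblet, cycling, stem, enteroendocrine, absorptive and leukocyte markers. The Paneth markers of SI summed to 53299 to 86362 CPM for WT and to 43029 to 66963 CPM for 9S/T-A. In colon, 1 of 9 goblet markers (Spink4) was called higher in 9S/T-A and 0 of the other lists. Over all genes, 0.905% were called lower and 1.03% higher in SI, and 0.0883% lower and 0.229% higher in colon. Called or not, the log2 fold changes in SI were below 0 for 9 of 9 cycling (median -0.35), 7 of 9 Paneth (-0.55), 7 of 8 stem (-0.15), 6 of 8 enteroendocrine (-0.58), 5 of 5 tuft (-1.05), 7 of 7 leukocyte (-0.25), 2 of 9 absorptive (0.40) and 0 of 9 goblet markers (0.28). In colon they were below 0 for 0 of 9 cycling (median 0.33), 3 of 9 Paneth (0.22), 5 of 8 stem (-0.11), 7 of 8 enteroendocrine (-0.56), 5 of 5 tuft (-0.39), 3 of 4 leukocyte (-0.31), 4 of 9 absorptive (0.08) and 1 of 9 goblet markers (0.25). Of all genes tested, 50% were below 0 in SI and 48.3% in colon. The cycling markers thus lay on the same side of 0 as the ribosomal protein genes in SI and on the other side in colon, while the goblet medians lay above 0 in both. Their part in the shift of the ribosomal protein genes was not tested.

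The third comparison asks whether the genotype difference was the same in SI and colon. None of the 55 genes differed by this test, which used all 24 libraries and the product of genotype and tissue: edgeR called 0 of 55 higher, against 0.29% of all genes, and 0 lower, against 0.123%. At an unadjusted p below 0.05 stood 0 of 55, against 9.69% of all genes, and DESeq2 called 0. The difference (colon minus SI, log2) was below 0 for 48 of 55, against 52.7% of all genes, with a median of -0.06 against -0.02 over all genes.

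Rps27 had the smallest p, with a difference of -0.24 (SE 0.14, adjusted p = 0.659, edgeR). It was at 142.2 to 230.0 CPM in WT SI (median 200.4) and 155.9 to 217.2 in 9S/T-A SI (median 209.7), and at 325.0 to 432.3 in WT colon (median 392.3) and 279.7 to 356.7 in 9S/T-A colon (median 330.2). The genotypes overlapped in both tissues. Rpl17 came next, at -0.16 (SE 0.14, adjusted p = 0.83), with a range of 159.8 to 225.7 CPM in 9S/T-A SI (median 205.6) and 316.7 to 395.2 CPM in 9S/T-A colon (median 369.4). The SE of this difference was between 0.14 and 0.21 for the 55 genes, so that a difference in the genotype effect of the size of the median would not have been detectable in this fit. The fit took no account of the numbers shared by SI and colon libraries. With each number of a genotype as a block, 0 of the 55 were called and the median was -0.07. Rps27 then stood at -0.25 (adjusted p = 0.278, edgeR).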

How the data were processed

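RNA from sorted EpCAM+tdTom+ cells was made into stranded poly(A) libraries and read as single ends. The authors deposited raw counts per Ensembl gene, not normalized; per the file headers, featureCounts counted reads over exons by strand and used primary alignments alone, so a read with several positions counted at 1 of them. The submitters' processing notes name TopHat2 2.1.1, Subread 1.5.2, DESeq2 1.14.1 and GRCm38.p3. GENCODE M21 named 44585 genes (97.96%), the 55 members among them, and 35 members had the same span in both. The members and gene lists were chosen with earlier results of these data known.

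Groups came from the labels. Of 60 pairs of libraries within a group, 0 were identical. Genes were filtered by group (filterByExpr), scaled by TMM and tested two-sided with edgeR 4.0.16 (R 4.3.3), and p-values were Benjamini-Hochberg adjusted over all genes tested. The SE was derived from the F statistic. DESeq2 1.42.0 was an alternative. Tested on simulated data with 200 genes changed 2-fold, the fit recovered 80.0% in SI (8 false calls) and 70.5% in colon (3 false calls) for genotype, and 79.5% (11) and 73.0% (8) for tissue in WT and 9S/T-A. Colon and SI libraries of the same number deviated together. Correlations were above 0.1 in 6 of 6 numbers in each genotype (means of 0.311 and 0.393). The pairs served for the differences between libraries of the same number, while the main tissue and genotype by tissue fits took no account of the numbers. A fit with the numbers as a block was an alternative, with family medians of 0.84 in WT and 0.79 in 9S/T-A. Named were, per comparison, up to 3 called members with the largest change in each direction, or the 2 with the smallest p where none was called, plus 10 members set for the subunits and those with the highest and lowest level per length. Other scalings, filters, covariates, libraries left out and pseudogene counts were tried.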

Additional observations from a re-analysis of the deposited data

Results flagged for a closer look

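In 5 of 76 groups of 6 libraries checked (17 named genes and 2 shares of counts, each in 4 groups), the lowest library stood apart from the rest by more than Dixon's 95% limit, where chance gives about 1 in 20, and groups of genes that move together are not separate checks. Each of the 5 was number 7 of a WT group. Rpl10 was at 219.5 CPM in WT SI number 7, against 297.7 to 337.9 in the other libraries, and at 448.5 CPM in WT colon number 7, against 537.2 to 588.1. Rpsa was at 287.7 CPM in WT SI number 7, against 436.8 to 519.7, and at 582.4 CPM in WT colon number 7, against 726.4 to 784.4. Rps6 was at 394.9 CPM in WT colon number 7, against 475.8 to 510.0. What sets number 7 apart was not tested.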

How the results depend on the processing

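All 55 genes were called higher in colon in both genotypes under each alternative run, and 0 were called in the genotype by tissue fit. Of 1324 values of named genes under alternatives, 1297 kept their direction and side of the threshold, 9 changed sign, 11 lost and 7 gained a call. For genotype in SI, 1 gene (Rpl29) was called lower in place of 0 with DESeq2, plain totals, an adjusted p threshold of 0.1, all 24 libraries in 1 fit, and number 7 left out; for genotype in colon, 10 were called with DESeq2 and 0 with pseudogenes matched by sequence added, in place of 1. With plain totals, the tissue medians were 1.53 in WT and 1.58 in 9S/T-A, where the medians of all genes were 0.74 and 0.85; relative to these the family stood at 0.79 and 0.74, and at 0.79 and 0.74 with TMM. The share of calls that were higher went from 52.1% to 86.6% (tissue in WT), 54.0% to 88.4% (tissue in 9S/T-A), 53.3% to 29.1% (genotype in SI) and 70.3% to 89.0% (genotype by tissue). The median shares of counts (SI of WT and 9S/T-A, then colon of WT and 9S/T-A) were 1.95%, 1.72%, 4.02% and 3.55% outside the 20 most counted genes, 1.45%, 1.20%, 4.21% and 3.66% with named pseudogenes, and 1.73%, 1.43%, 5.05% and 4.39% with those by sequence (chosen after seeing the data, as was leaving out number 7). Rps3a1 was at -0.062 in SI with plain totals, -0.21 in SI and -0.23 in colon with named pseudogenes, and -0.23 and -0.24 with those by sequence.

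Leaving out 1 library gave 0 to 1 genes called lower for genotype in SI (1 without WT number 7) and in colon (0 without number 2, 3, 4, 5 or 6 of either genotype), Rps3a1 values of -0.044 to 0.15 and Rpl10 values of -0.11 to 0.029 in SI, with the sign changed without WT number 7 or 9S/T-A number 2 (Rps3a1) and without WT number 4 or 9S/T-A number 7 (Rpl10). The family medians ran from -0.24 to -0.08 (genotype in SI), -0.21 to -0.15 (colon), 0.76 to 0.91 (tissue in WT), 0.71 to 0.84 (9S/T-A) and -0.11 to 0.04 (genotype by tissue). With the replicate block, 1 gene was called lower in SI (Rpl29, -0.40, adjusted p = 0.0201, edgeR) and 1 in colon (Rpl29, adjusted p = 0.0025), 10 and 50 stood at an unadjusted p below 0.05, and no tissue call changed; between genotypes the numbers share only a number, with correlations above 0.1 in 3 of 6 (SI) and 5 of 6 (colon), and 4 and 8 of 12 libraries correlated best with their own number. Where no cause is given, the cause was not tested. Counts were high enough that depth set little of the error, while reads placed at pseudogenes could not be resolved.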
